A study of Callithrix jacchus with 4 samples.

Results

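The 44 genes described here encode the receptors for glutamate and the proteins that hold them at the excitatory synapse. They were taken from the gene table by symbol, for 4 AMPA, 6 NMDA, 5 kainate and 6 metabotropic receptor genes, 16 scaffold genes, 2 CaMKII subunit genes, 3 neuroligins and 2 neurexins. All 44 were among the 35108 genes of the table, and all 44 passed the filter on low counts that left 16385 genes to test. RNA came from frontal cortex of adult Callithrix jacchus, the common marmoset, a New World primate of small size. A group of 2 libraries came from animals labelled as carrying an APP transgene, and a group of 2 from wild-type (WT) animals. The series title gives the transgenes as mutant amyloid precursor protein under the human EF1α promoter, a promoter active in most cell types. The labels give female sex for both transgenic libraries and no sex for the wild type, and name no line, founder or age beyond adult. Whether each library is its own animal is not stated. The p-values, with n = 2 libraries a group throughout, measure the spread between these libraries. In the transgenic group that spread may be technical. Reads of KDM5D, a gene on the Y chromosome, numbered 2 in wild-type library 1 and 243 in wild-type library 2. The wild-type libraries thus appear to differ in sex, and the spread between them includes that difference.

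Glutamate released into the synaptic cleft opens AMPA receptors, which carry most of the fast current, and NMDA receptors, which admit calcium once the membrane is depolarised. Kainate receptors modulate release and excitability, and metabotropic receptors act through G proteins. Beneath the membrane, DLG proteins bind receptor tails, DLGAP proteins join DLG to SHANK, and SHANK joins HOMER and the actin skeleton, while CaMKII, the kinase that calcium activates, phosphorylates receptors and scaffold. Neuroligins and neurexins bridge the cleft.

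Total counts were 13462167 and 18932180 in transgenic libraries 1 and 2, against 12657323 and 13569838 in wild-type libraries 1 and 2. Member counts ran from 71 to 54980 in a library, so each member was well above the floor of 3 counts. The levels below are CPM, counts scaled to the size of the library, which are not corrected for transcript length and are compared only for the same gene between libraries. APP itself was at 2143 and 2748 CPM in transgenic libraries 1 and 2, against 1822 and 2182 CPM in wild-type libraries 1 and 2, with overlapping groups. It is unknown whether transgene reads count towards APP, and this level is therefore no check of the labels. The defining markers of neurons, astrocytes, oligodendrocytes, their precursors, microglia and endothelium were detected, with 9 of 10 listed neuron markers and 2 of 5 listed blood markers, ALAS2 and SLC4A1, matched by symbol. Transgenic library 2 stood apart in astrocyte, oligodendrocyte and oligodendrocyte precursor markers. Summed levels of precursor and microglial markers are given below. Microglial markers disagreed, with 6 of 10 higher in transgenic library 2 than in transgenic library 1. CX3CR1 was at 40.3 and 3.765 CPM in transgenic libraries 1 and 2, against 37.5 and 68.45 CPM in wild-type libraries 1 and 2. C1QC was at 5.145 and 27.0 CPM in transgenic libraries 1 and 2, against 33.9 and 11.3 CPM in wild-type libraries 1 and 2. The summed level of 10 astrocyte markers was 10389 and 3871 CPM in transgenic libraries 1 and 2, against 11527 and 9673 CPM in wild-type libraries 1 and 2. That of 10 oligodendrocyte markers was 3300 and 1202 CPM in transgenic libraries 1 and 2, against 3333 and 2639 CPM in wild-type libraries 1 and 2. In bulk tissue, fewer cells of a type and less RNA per cell cannot be told apart.

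The glutamate receptor genes lay mostly above the wild type in transgenic cortex, and the scaffold genes mostly overlapped it. Of the 44 members, 34 were higher in sign (77.3%, where 49.6% of all genes tested were) and 10 lower (22.7%, where 50.4% were), and the median log2 fold change of transgenic over wild type was 0.16, against a median of -0.002 over all genes tested. In 18 members (40.9%) both transgenic libraries were above both wild-type libraries, a pattern that 19.5% of all genes tested showed. In 1 member, GRIN2C, both were below, against 19.4% of all genes. No member passed edgeR's quasi-likelihood test at an adjusted p of 0.05, nor did any of the 16385 genes (0% called). The adjusted p of the members lay between 0.789 and 1.0. At an unadjusted p under 0.05 there were 5 members, GRIK3, DLGAP2, GRIN3A, GRIA1 and GRM5, all higher (11.4%, against 3.23% of all genes in that direction), and 0 lower (2.39% of all genes). DESeq2 called 0 members, with a smallest adjusted p of 0.126, while it called 48 of all genes (0.293%), and limma-voom called 0.

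The receptors and the other members differed in these counts. Among the 21 receptor genes 19 were higher in sign, 12 (57.1%, against 19.5% of all genes tested) had transgenic libraries above both wild-type libraries, and the median log2 fold change was 0.22. Among the 23 scaffold, kinase and adhesion genes 15 were higher in sign, 6 (26.1%, against the same 19.5%) were above without overlap, and the median was 0.05. The second median depended on single libraries: it was 0.02 without transgenic library 2, where the receptors had 0.21, -0.01 without wild-type library 1, where the receptors had 0.25, and 0.19 without wild-type library 2, where the receptors had 0.32. These counts describe genes measured in the same libraries and are no test of a difference between the groups of genes.

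**Figure D1:**
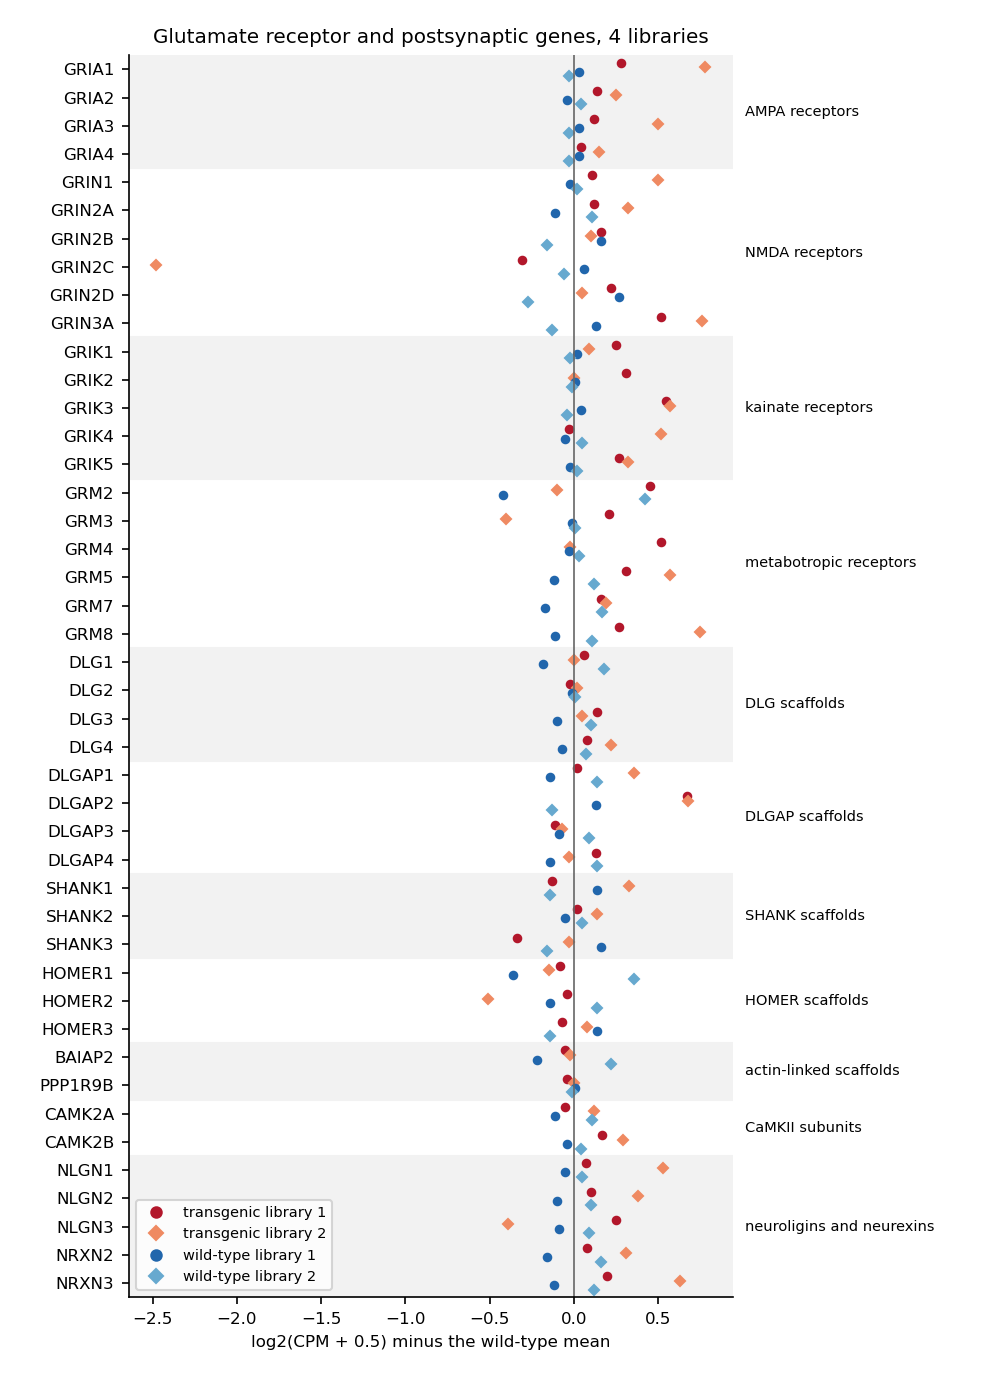
Level of each of the 44 members in each library as log2(CPM + 0.5) minus the mean of the wild-type libraries (x axis), by family (y axis, 4 points a gene). In the receptor families most transgenic points lie right of 0, with GRIN2C of transgenic library 2 far to the left at -2.48, while the points of DLG2 and PPP1R9B of all libraries lie close together.

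All 4 AMPA receptor genes were above the wild type in both transgenic libraries, by different amounts. GRIA1, a subunit that is inserted at synapses during potentiation, was at 229 and 325 CPM in transgenic libraries 1 and 2, against 193 and 185 CPM in wild-type libraries 1 and 2. Its groups did not overlap, and transgenic library 2 was the highest by a wide margin. The fitted log2 fold change was 0.55 ± 0.20 SE (adjusted p = 0.79 in edgeR's quasi-likelihood test). With transgenic library 2 left out it was 0.27, and with library 1 left out 0.78. GRIA3 was at 244 and 317 CPM in transgenic cortex, against 229 and 219 CPM in wild-type cortex, a difference of 0.33 ± 0.17 SE on the log2 scale that was 0.12 without transgenic library 2. GRIA2, whose edited subunit keeps calcium out of the channel, was at 589 and 637 CPM in transgenic cortex, against 519.7 and 553 CPM in wild-type cortex, without overlap but with a smaller difference of 0.19 ± 0.14 SE. GRIA4, found in interneurons among other cells, was at 42.8 and 46.2 CPM in transgenic cortex, against 42.6 and 40.7 CPM in wild-type cortex. Its lowest transgenic and highest wild-type values were almost equal.

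Of the NMDA receptor genes, GRIN1, GRIN2A and GRIN3A lay above the wild type without overlap, GRIN2C lay below it, and GRIN2B and GRIN2D overlapped. GRIN1, the subunit that every NMDA receptor contains, was at 529 and 693 CPM in transgenic cortex, against 483 and 496 CPM in wild-type cortex. The log2 difference was 0.32 ± 0.18 SE, 0.11 without transgenic library 2. GRIN3A, a glycine-binding subunit that lowers the calcium flow of the receptor, was at 49.5 and 58.6 CPM in transgenic cortex, against 37.5 and 31.4 CPM in wild-type cortex. Both transgenic libraries were clear of both wild-type libraries, with a log2 fold change of 0.65 ± 0.17 SE (edgeR adjusted p = 0.79), and leaving out any library gave 0.52 to 0.78. GRIN2A, a main glutamate-binding subunit of adult cortex, was at 326 and 374 CPM in transgenic cortex, against 278 and 325 CPM in wild-type cortex, where transgenic library 1 and wild-type library 2 were almost level. GRIN2B, which predominates early in development, was at 47.1 and 45.2 CPM in transgenic cortex, against 47.2 and 37.8 CPM in wild-type cortex, with overlap. GRIN2D, an interneuron subunit, was at 9.70 and 8.58 CPM in transgenic cortex, against 10.1 and 6.80 CPM in wild-type cortex, also with overlap.

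GRIN2C had the widest spread of any member. It was at 19.6 and 3.93 CPM in transgenic libraries 1 and 2, against 25.4 and 23.3 CPM in wild-type libraries 1 and 2, as 266 and 71 counts in transgenic libraries 1 and 2 and 328 and 318 counts in wild-type libraries 1 and 2. The fitted log2 fold change of -1.06 ± 0.70 SE (edgeR adjusted p = 0.80) was -0.32 with transgenic library 2 left out and -2.63 with transgenic library 1 left out, a fit in which it passed (adjusted p = 0.00077). In mouse cortex the transcript of this subunit is known from astrocytes, and transgenic library 2 was also the lowest in 9 of 10 astrocyte markers. The exception was GFAP, at 757 and 635 CPM in transgenic libraries 1 and 2, against 695 and 517 CPM in wild-type libraries 1 and 2. The glutamate transporter gene SLC1A2 was at 4337 and 999 CPM in transgenic libraries 1 and 2, against 4921 and 4173 CPM in wild-type libraries 1 and 2. FGFR3 was at 70.8 and 8.91 CPM in transgenic libraries 1 and 2, against 88.3 and 92.1 CPM in wild-type libraries 1 and 2, and ALDH1L1 at 97.8 and 41.2 CPM in transgenic cortex, against 138 and 108 CPM in wild-type cortex. S100B, which encodes a calcium-binding protein, was at 77.1 and 23.6 CPM in transgenic libraries 1 and 2, against 162 and 80.9 CPM in wild-type libraries 1 and 2. Of 10 astrocyte markers 9 were lower in sign, and relative to the wild-type mean the list's median was -0.01 and -1.62 in transgenic libraries 1 and 2, against 0.11 and -0.11 in wild-type libraries 1 and 2 (log2). The part of astrocyte RNA in the GRIN2C difference was not tested.

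Both GRM3, a receptor that astrocytes also express, and NLGN3 went opposite ways in the transgenic libraries. GRM3 was at 173 and 113 CPM in transgenic libraries 1 and 2, against 148 and 150.4 CPM in wild-type libraries 1 and 2, with transgenic library 1 the highest and library 2 the lowest of all. NLGN3, a neuroligin of excitatory and inhibitory synapses that glia also express in mouse, was at 127 and 81.01 CPM in transgenic libraries 1 and 2, against 99.6 and 113 CPM in wild-type libraries 1 and 2, in the same arrangement. Their log2 fold changes of -0.06 and -0.04 were averages of libraries that disagreed, and became 0.21 and 0.25 without transgenic library 2.

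**Figure D2:**
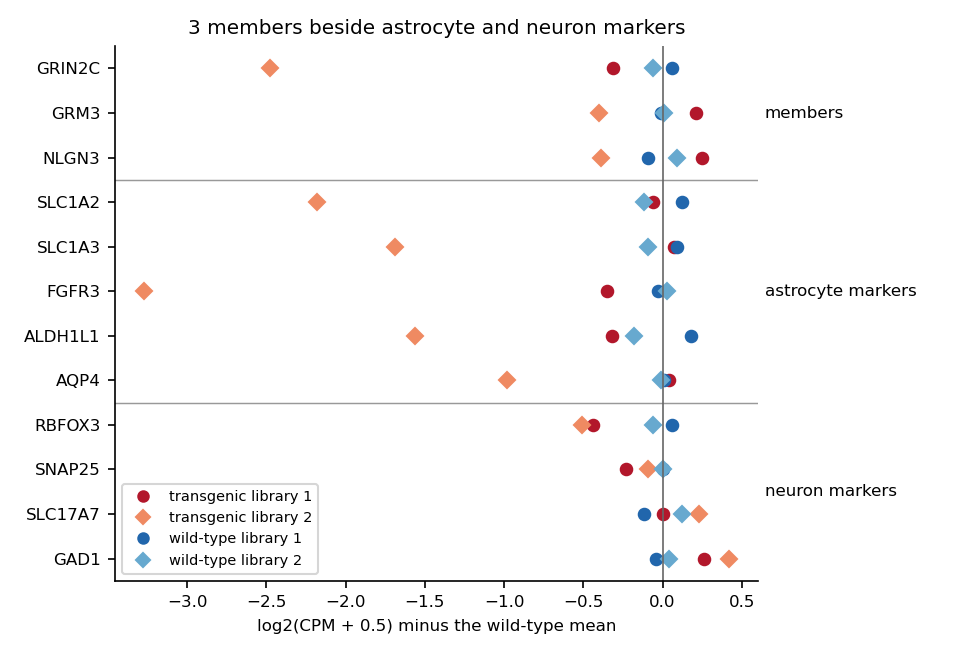
GRIN2C, GRM3 and NLGN3 beside 5 astrocyte and 4 neuron markers, each as log2(CPM + 0.5) minus the wild-type mean (x axis), 4 libraries a gene (y axis). Transgenic library 2 is the lowest point for the 3 members and the 5 astrocyte markers shown. GFAP, an astrocyte marker that is not shown, was at 0.08 in transgenic library 2. Of the 4 neuron markers in that library, SLC17A7 and GAD1 lie right of 0, and RBFOX3 and SNAP25 left of 0, at -0.51 and -0.09.

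All 5 kainate receptor genes were higher in sign, and GRIK3 had the smallest unadjusted p of the 44 members. GRIK3, a low-affinity subunit, was at 126 and 128 CPM in transgenic libraries 1 and 2, against 88.1 and 83.7 CPM in wild-type libraries 1 and 2. The libraries of each group were close together and the groups far apart, with a log2 fold change of 0.56 ± 0.12 SE (edgeR adjusted p = 0.79). It stayed between 0.52 and 0.59 when any library was left out. GRIK5, a high-affinity subunit that needs a low-affinity partner to form a channel, was at 86.1 and 88.7 CPM in transgenic cortex, against 70.3 and 71.9 CPM in wild-type cortex, again with tight groups, and had a log2 fold change of 0.30 ± 0.12 SE (edgeR adjusted p = 0.79). GRIK1 was at 28.6 and 25.7 CPM in transgenic cortex, against 24.4 and 23.6 CPM in wild-type cortex, without overlap. GRIK2 was at 78.1 and 63.1 CPM in transgenic cortex, against 63.6 and 62.7 CPM in wild-type cortex, where transgenic library 1 was higher than the other 3 libraries. For GRIK4, the other high-affinity subunit, transgenic library 2 was the high one, at 26.97 and 39.9 CPM in transgenic cortex, against 26.5 and 28.7 CPM in wild-type cortex.

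Among metabotropic receptor genes, GRM5 and GRM8 were above the wild type without overlap. GRM5, the postsynaptic receptor that signals to phospholipase C and is tied to SHANK through HOMER, was at 182 and 218 CPM in transgenic libraries 1 and 2, against 135 and 159.7 CPM in wild-type libraries 1 and 2, a log2 fold change of 0.44 ± 0.16 SE (edgeR adjusted p = 0.79). GRM8, a presynaptic receptor that lowers release, was at 20.4 and 28.6 CPM in transgenic cortex, against 15.6 and 18.2 CPM in wild-type cortex. Its log2 fold change was 0.54 ± 0.23 SE, 0.27 without transgenic library 2. The other 2 release-lowering receptors of its group overlapped, GRM7 at 35.1 and 35.9 CPM in transgenic cortex, against 27.8 and 35.4 CPM in wild-type cortex and GRM4 at 14.6 and 9.86 CPM in transgenic cortex, against 9.83 and 10.2 CPM in wild-type cortex. GRM2, a mainly presynaptic receptor, was at 58.9 and 40.04 CPM in transgenic cortex, against 31.9 and 57.6 CPM in wild-type cortex. There transgenic library 1 and wild-type library 2 were high, the other pair was low, and no order by genotype was seen.

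**Figure D3:**
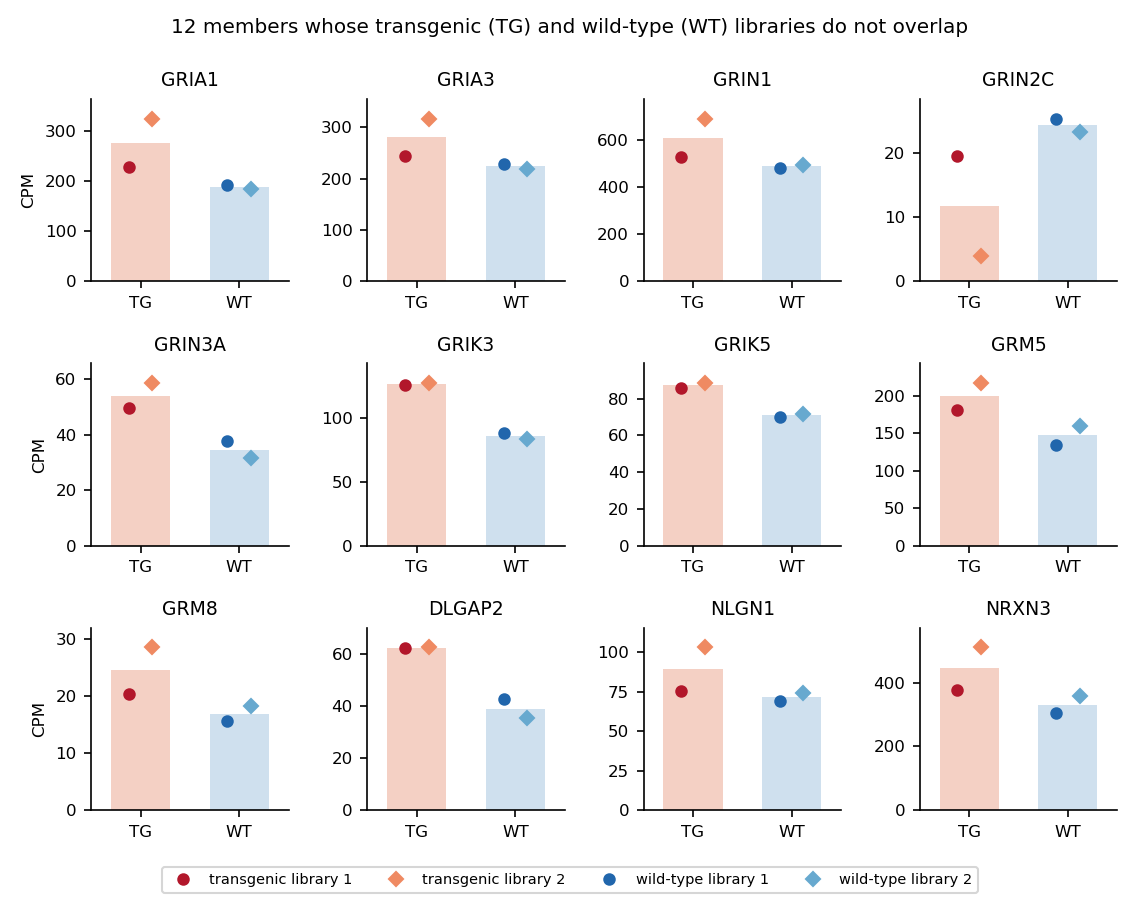
CPM (y axis, from 0) of the 12 members that had no overlap between groups and a log2 fold change of at least 0.3 in size or an unadjusted p under 0.1, with transgenic (TG) bars left of wild-type (WT) bars. Bars are means of 2 libraries and points are libraries. GRIK3, GRIK5 and DLGAP2 have transgenic points close together, while GRIA1, GRIA3, GRIN1, NLGN1 and NRXN3 have transgenic library 2 well above library 1.

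The DLG scaffold genes were close to the wild type. DLG4, the main DLG of the mature excitatory synapse, was at 675 and 740.1 CPM in transgenic cortex, against 608 and 666 CPM in wild-type cortex, with transgenic library 1 just above wild-type library 2 and a log2 fold change of 0.15 ± 0.15 SE. DLG2 was at 231 and 237 CPM in transgenic cortex, against 232 and 235 CPM in wild-type cortex, a range narrower than in any other DLG gene. DLG1 was at 173 and 167 CPM in transgenic cortex, against 147 and 189 CPM in wild-type cortex and DLG3 at 174 and 164 CPM in transgenic cortex, against 147 and 170.3 CPM in wild-type cortex, both with overlap.

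DLGAP2 had the largest positive log2 fold change of the 44 members. It was at 62.3 and 62.8 CPM in transgenic libraries 1 and 2, against 42.7 and 35.4 CPM in wild-type libraries 1 and 2, with nearly equal transgenic libraries and a log2 fold change of 0.68 ± 0.16 SE (edgeR adjusted p = 0.79). Leaving out any library gave 0.55 to 0.82. The groups overlapped for the other DLGAP genes. DLGAP1 was at 548 and 694 CPM in transgenic cortex, against 492 and 595 CPM in wild-type cortex, DLGAP3 at 276 and 283 CPM in transgenic cortex, against 279.6 and 317 CPM in wild-type cortex and DLGAP4 at 183 and 163 CPM in transgenic cortex, against 151 and 183 CPM in wild-type cortex.

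No SHANK or HOMER gene separated the groups. SHANK1 was at 517 and 711 CPM in transgenic libraries 1 and 2, against 622 and 512 CPM in wild-type libraries 1 and 2, with transgenic library 2 and wild-type library 1 the high ones. SHANK2 was at 120.5 and 131 CPM in transgenic cortex, against 115 and 123 CPM in wild-type cortex. SHANK3 was at 153 and 189.9 CPM in transgenic cortex, against 218 and 173 CPM in wild-type cortex, with wild-type library 1 the highest, and had a log2 fold change of -0.19 ± 0.18 SE that was -0.02 without that library. HOMER1 was at 192 and 183 CPM in transgenic cortex, against 158 and 262 CPM in wild-type cortex. The wild-type libraries were its lowest and highest. HOMER1 also makes a short form that neuronal activity induces, and counts per gene do not separate it from the long, scaffolding form. HOMER2 was at 14.3 and 10.2 CPM in transgenic cortex, against 13.3 and 16.3 CPM in wild-type cortex, lowest in transgenic library 2, and HOMER3 was at 8.60 and 9.63 CPM in transgenic cortex, against 10.1 and 8.19 CPM in wild-type cortex.

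The actin-linked scaffolds overlapped between the groups. PPP1R9B, the spine protein that targets protein phosphatase to the synapse, was at 573 and 587 CPM in transgenic cortex, against 594 and 583 CPM in wild-type cortex, and BAIAP2, an actin regulator that binds DLG and SHANK, at 156 and 159 CPM in transgenic cortex, against 138 and 188 CPM in wild-type cortex. CAMK2A, the α subunit of CaMKII, was at 2695 and 3044 CPM in transgenic cortex, against 2598 and 3011 CPM in wild-type cortex, with each transgenic library close to a wild-type library. CAMK2B, the β subunit that binds actin, was at 288 and 312 CPM in transgenic cortex, against 249 and 264 CPM in wild-type cortex, without overlap (log2 fold change 0.23 ± 0.13 SE).

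Of the adhesion genes, NLGN1, NLGN2 and NRXN3 were above the wild type without overlap. NRXN3, a presynaptic partner of the neuroligins, was at 378 and 512 CPM in transgenic libraries 1 and 2, against 304 and 359 CPM in wild-type libraries 1 and 2, a log2 fold change of 0.43 ± 0.20 SE (edgeR adjusted p = 0.79) that was 0.19 without transgenic library 2. NLGN1, the neuroligin of excitatory synapses, was at 75.2 and 103 CPM in transgenic cortex, against 68.9 and 74.1 CPM in wild-type cortex. Transgenic library 1 lay just above wild-type library 2 there, and the log2 fold change of 0.32 ± 0.19 SE was 0.07 without transgenic library 2. NLGN2, the neuroligin of inhibitory synapses, was at 249.5 and 302 CPM in transgenic cortex, against 217 and 248.5 CPM in wild-type cortex. Its transgenic library 1 and wild-type library 2 were almost equal, and the log2 fold change of 0.24 ± 0.16 SE was 0.10 without transgenic library 2. NRXN2 was at 302 and 354 CPM in transgenic cortex, against 256 and 318 CPM in wild-type cortex, with overlap.

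The transgenic libraries agreed on some members and not on others. Transgenic library 1 was above both wild-type libraries in 24 members (54.5%, against 34.4% of all genes) and library 2 in 26 (59.1%, against 39.9%). Relative to the wild-type mean, the members' median was 0.12 and 0.14 in transgenic libraries 1 and 2, against -0.04 and 0.04 in wild-type libraries 1 and 2 (log2). Without transgenic library 1, edgeR called 6 members (13.6%), where it called 9.92% of all genes: GRIA1, GRIN3A, GRIK3, DLGAP2 and NRXN3 as higher and GRIN2C as lower. In that fit the lone transgenic library is assumed to vary like the wild-type pair. Without transgenic library 2 it called 0 members and 3 of all genes (0.0175%). Over the members the median absolute log2 difference was 0.19 between the transgenic libraries and 0.20 between the wild-type libraries, and over all genes tested it was 0.28 and 0.18.

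**Figure D4:**
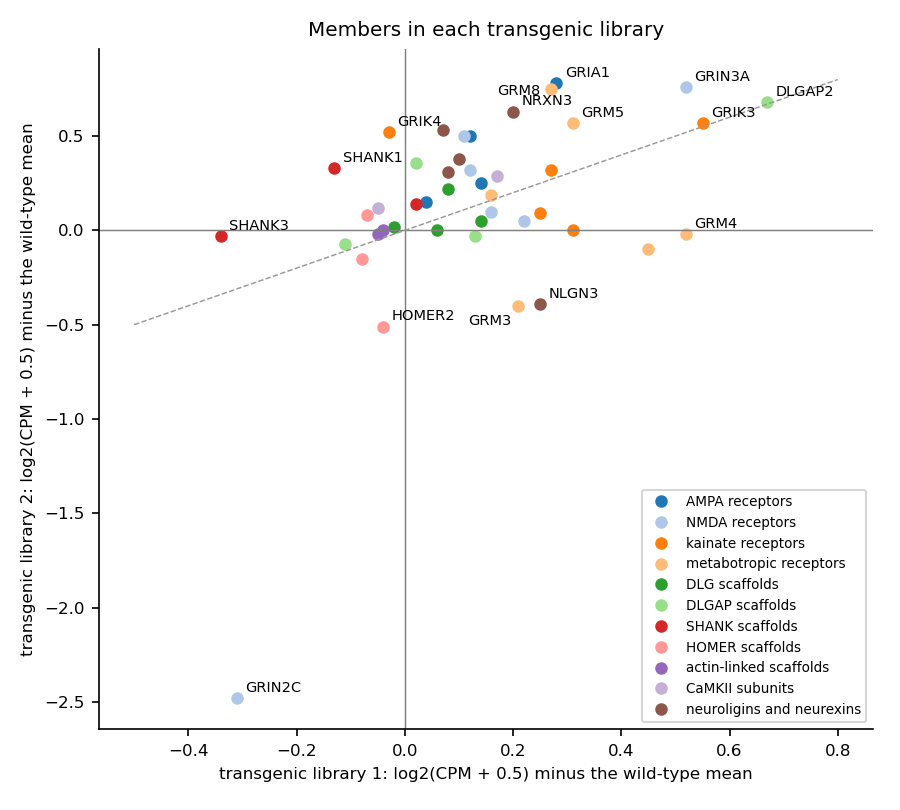
Each member by its log2(CPM + 0.5) minus the wild-type mean in transgenic library 1 (x axis) and library 2 (y axis), coloured by family, with the line of equality dashed. DLGAP2, GRIK3 and GRIN3A lie near the line at the upper right, GRIA1 and GRM8 above it, GRM3 and NLGN3 right of 0 and below 0, and GRIN2C at the bottom.

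The make-up of each family was compared as the share of the family's counts taken by a gene in a library, which compares a gene with its relatives within a library. Longer transcripts give more counts and so weigh more in a share, and with 3 or more genes in a family the size of a difference in share, and its direction for some genes, can depend on that. Length cancels in a ratio of the counts of 2 genes compared between libraries. Of 38 shares in 10 families 17 (44.7%) did not overlap between the groups. Shares of a family sum to a whole and depend on each other, and they have no counterpart over all genes, where 38.9% of CPM values did not overlap in either direction. No test was made, since the smallest two-sided p of an exact permutation test is 0.33 with 2 libraries against 2. Intervals are 95% Clopper-Pearson intervals and cover counting error only.

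SHANK3 took 19.4% and 18.4% in transgenic libraries 1 and 2, against 22.8% and 21.4% in wild-type libraries 1 and 2, with intervals of at most 0.8 percentage points to a side. SHANK1 took 65.4% and 68.9% in transgenic libraries 1 and 2, against 65.2% and 63.4% in wild-type libraries 1 and 2. Although neither gene separated the groups by its level, the share of SHANK3 was lower in both transgenic libraries, and SHANK1 counts per SHANK3 count were 3.38 and 3.74 in transgenic libraries 1 and 2, against 2.86 and 2.96 in wild-type libraries 1 and 2. Of the counts of CAMK2A and CAMK2B together, CAMK2B took 9.66% and 9.31% in transgenic libraries 1 and 2, against 8.74% and 8.05% in wild-type libraries 1 and 2. The intervals were at most 0.3 points to a side, and each transgenic value was above each wild-type value.

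GRIK3 took 36.4% and 37% in transgenic libraries 1 and 2, against 32.3% and 30.9% in wild-type libraries 1 and 2, within 1.6 points, and was the one kainate gene whose share was higher in both transgenic libraries. DLGAP2 took 5.83% and 5.22% in transgenic libraries 1 and 2, against 4.43% and 3.13% in wild-type libraries 1 and 2, within 0.39 points, and DLGAP3 25.8% and 23.5% in transgenic libraries 1 and 2, against 29% and 28% in wild-type libraries 1 and 2. The share of DLGAP2 was thus higher and that of DLGAP3 lower in both transgenic libraries. GRIA1 took 20.7% and 24.5% in transgenic libraries 1 and 2, against 19.6% and 18.5% in wild-type libraries 1 and 2, where library 1 exceeded the wild type by little and library 2 by several times the interval of 0.7 points. GRM5 took 37.6% and 48.9% in transgenic libraries 1 and 2, against 36.7% and 37% in wild-type libraries 1 and 2, again with library 2 apart. GRIN2A counts per GRIN2B count, a ratio that grows as cortex matures in rodents, were 6.93 and 8.27 in transgenic libraries 1 and 2, against 5.88 and 8.60 in wild-type libraries 1 and 2, and did not separate the groups.

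**Figure D5:**
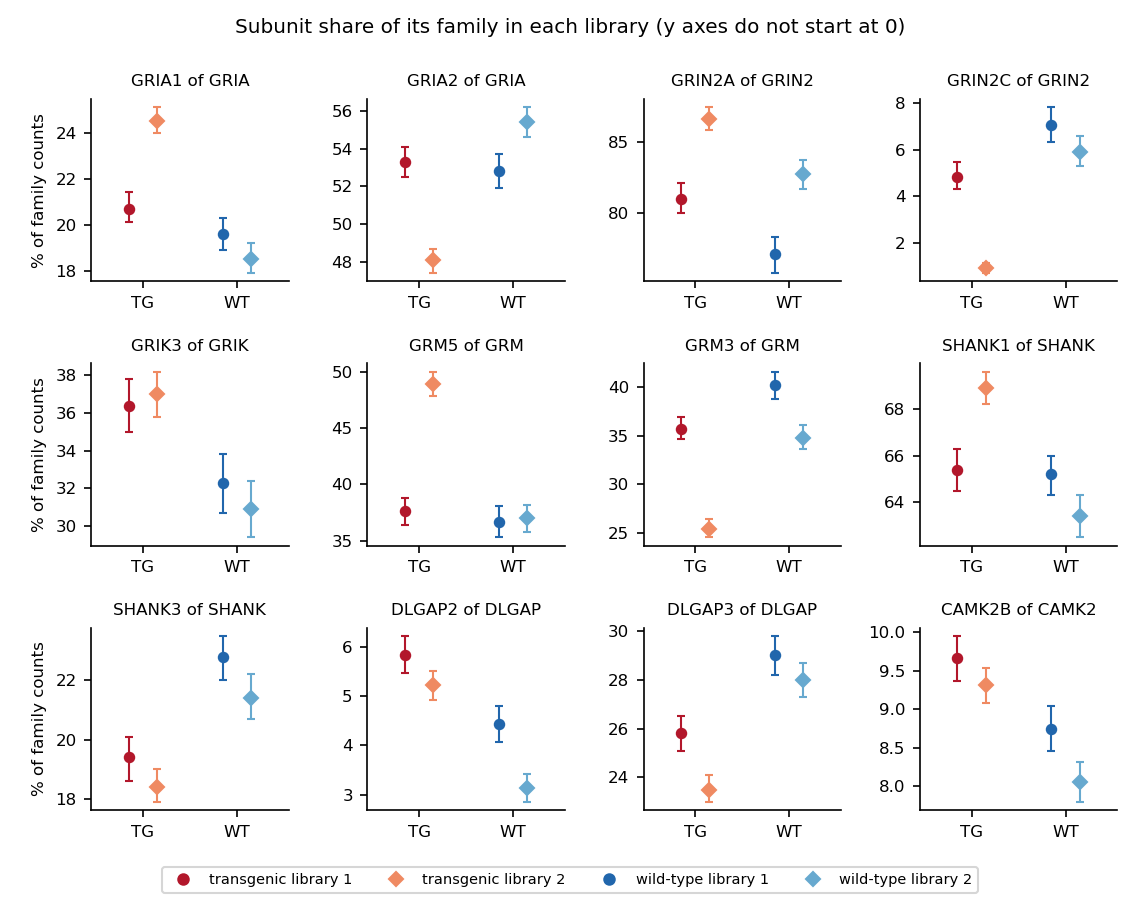
Share of family counts in percent (y axes, which do not start at 0) for 12 members, transgenic (TG) left of wild type (WT), with bars for 95% Clopper-Pearson intervals. SHANK3 and DLGAP3 lie lower and CAMK2B, GRIK3 and DLGAP2 higher in both transgenic libraries, while GRM5 and GRIA2 set transgenic library 2 apart from the other 3.

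Genes that work with the members were read from lists of the pathway, none of whose genes passed in edgeR or DESeq2. The counts without overlap below stand beside 19.5% of all genes tested that were above and 19.4% that were below. Of 16 auxiliary subunits of AMPA and kainate receptors, 12 were higher in sign and 8 lay above the wild type without overlap (median log2 fold change 0.20, 0.07 without wild-type library 1). SHISA9, an AMPA receptor auxiliary subunit, was at 103 and 139 CPM in transgenic cortex, against 58.9 and 76.1 CPM in wild-type cortex (log2 fold change 0.84 ± 0.21 SE; edgeR adjusted p = 0.79). NETO1, an auxiliary subunit of kainate receptors, was at 117 and 139 CPM in transgenic cortex, against 88.3 and 96.98 CPM in wild-type cortex, and FRRS1L, which helps to assemble AMPA receptors, at 90.7 and 109 CPM in transgenic cortex, against 71.4 and 81.4 CPM in wild-type cortex. In all 3 the transgenic libraries were above both wild-type libraries. These genes were named for the smallest p of the 16, a choice that favours such separation, and 4 of the 16 were lower in sign.

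Of 28 genes for receptor trafficking and postsynaptic signalling, 20 were higher in sign, 12 were above and 2 below without overlap (median 0.13). Without transgenic library 2, 16 were higher and the median was 0.05, and without wild-type library 1 it was 0.08. CAMK2D, a CaMKII subunit found beyond neurons as well, was at 208 and 233 CPM in transgenic cortex, against 144 and 165 CPM in wild-type cortex. CAMK4, a nuclear calmodulin kinase, was at 152 and 169 CPM in transgenic cortex, against 110.1 and 128 CPM in wild-type cortex. CAMK2G, another CaMKII subunit, lay below without overlap, at 400 and 428 CPM in transgenic cortex, against 517 and 481 CPM in wild-type cortex. It is named here outside the rule of smallest p. Of 20 further adhesion genes, 14 were higher in sign, 7 above and 1 below without overlap (median 0.16). This depended on the wild-type libraries: without wild-type library 1, 9 were higher and the median was -0.03, and without wild-type library 2, 17 were higher and it was 0.35. EFNB3, an ephrin, was at 17.8 and 25.4 CPM in transgenic cortex, against 9.29 and 10.02 CPM in wild-type cortex, and LRRTM2, a neurexin ligand, at 100.5 and 96.6 CPM in transgenic cortex, against 74.5 and 79.2 CPM in wild-type cortex. CBLN1, which links neurexins to glutamate delta receptors, was at 4.85 and 5.43 CPM in transgenic cortex, against 2.48 and 1.32 CPM in wild-type cortex. Its counts were low, 66 and 98 in transgenic libraries 1 and 2, against 32 and 18 in wild-type libraries 1 and 2.

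Of 9 genes of glutamate supply and uptake, 3 were higher and 6 lower in sign, 2 above and 1 below without overlap (median -0.01, -0.17 without wild-type library 1). SLC17A7, which loads glutamate into cortical vesicles, was at 1157 and 1359 CPM in transgenic cortex, against 1066 and 1261 CPM in wild-type cortex, with overlap. SLC17A6, the vesicular transporter typical of thalamic and other subcortical neurons, was at 1.69 and 0.39 CPM in transgenic cortex, against 5.26 and 4.61 CPM in wild-type cortex. These levels rest on few reads, 23 and 7 counts in transgenic libraries 1 and 2, against 68 and 63 in wild-type libraries 1 and 2. SLC38A1, a glutamine transporter, was at 72.2 and 70.5 CPM in transgenic cortex, against 62.3 and 51.9 CPM in wild-type cortex.

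General neuron markers went both ways. Of 9 general neuron markers 4 were higher and 5 lower in sign, 2 above and 4 below without overlap (median -0.12, 0.08 without wild-type library 2), with a summed level of 10495 and 12420 CPM in transgenic libraries 1 and 2, against 11563 and 11284 CPM in wild-type libraries 1 and 2. RBFOX3, the gene for the nuclear antigen NeuN, was at 284 and 270.2 CPM in transgenic cortex, against 402 and 368 CPM in wild-type cortex. The neurofilament genes NEFM and NEFL also lay below the wild type, NEFM at 415 and 359.9 CPM in transgenic cortex, against 877 and 583 CPM in wild-type cortex and NEFL at 570.5 and 622 CPM in transgenic cortex, against 963 and 689 CPM in wild-type cortex. NEFM passed in DESeq2 (adjusted p = 0.044) and not in edgeR (adjusted p = 0.79). In the other direction, and chosen after their values were seen, the vesicle protein gene SYT1 was at 2634 and 3651 CPM in transgenic cortex, against 2037 and 2460 CPM in wild-type cortex, and the microtubule protein gene MAP2 at 1658 and 1837 CPM in transgenic cortex, against 1610 and 1548 CPM in wild-type cortex.

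Excitatory markers were 5 higher and 5 lower (median 0.04, -0.18 without wild-type library 1 and 0.20 without wild-type library 2), and NRGN, TBR1 and LAMP5 lay below the wild type without overlap. For NRGN, transgenic library 1 at 1107 CPM and wild-type library 1 at 1126 CPM were almost level. Inhibitory markers were 8 higher and 2 lower, 6 above and 1 below without overlap (median 0.19). The one below was PVALB, the gene for the parvalbumin of fast-spiking interneurons, at 29.6 and 25.4 CPM in transgenic cortex, against 44.5 and 35.5 CPM in wild-type cortex. GAD1 and GAD2, whose enzymes make GABA, lay above the wild type, GAD1 at 286 and 319.5 CPM in transgenic cortex, against 232 and 246 CPM in wild-type cortex and GAD2 at 284 and 311 CPM in transgenic cortex, against 232 and 235 CPM in wild-type cortex. Microglial markers were lower in 10 of 10, endothelial markers in 7 of 8 and oligodendrocyte precursor markers in 6 of 8. The microglial adaptor gene TYROBP was at 7.35 and 6.26 CPM in transgenic cortex, against 15.01 and 19.6 CPM in wild-type cortex, and passed in DESeq2 (adjusted p = 0.044) and not in edgeR (adjusted p = 0.79). The summed microglial level was 137 and 115 CPM in transgenic libraries 1 and 2, against 216 and 256 CPM in wild-type libraries 1 and 2, the endothelial level 211 and 156 CPM in transgenic libraries 1 and 2, against 315 and 246 CPM in wild-type libraries 1 and 2, and the precursor level 308 and 145 CPM in transgenic libraries 1 and 2, against 325 and 250.0 CPM in wild-type libraries 1 and 2. The part of these cell types in the members' levels was not tested.

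GRIA3, DLG3 and NLGN3 are X-linked in human. The Y-linked gene KDM5D had 0 counts in both transgenic libraries, against 2 in wild-type library 1 and 243 in wild-type library 2, so sex cannot be told apart from genotype in part of the comparison. Without wild-type library 2 the log2 fold changes of the 3 genes were 0.30, 0.20 and 0.06.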

How the data were processed

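RNA-seq libraries of marmoset frontal cortex were compared, 2 labelled with an APP transgene and 2 wild type. Per the labels' protocols, total RNA was extracted with RNeasy Mini columns and libraries were made with KAPA Hyper. The deposited table holds raw counts, whole numbers for each gene symbol. Kallisto 0.46.2, featureCounts 1.5.2 and STAR 2.5.3a appear in the submitters' processing notes, with no roles. Nothing used here gives the genome build, annotation or strand setting, so a gene's reads may include those of an overlapping or antisense gene, and no coordinates are printed. No column was left out. The sequences of the members are not analysed here.

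Counts were analysed in R 4.3.3. Genes were kept by filterByExpr and scaled by TMM, and genotype alone was fitted with edgeR 4.0.16 and its quasi-likelihood test (2 residual degrees of freedom, biological coefficient of variation 24.5%), with Benjamini-Hochberg adjustment over 16385 genes at a threshold of 0.05. Standard errors are the log2 fold change divided by the square root of the F statistic. Deviations by library use log2(CPM + 0.5). A count of 3 is 0.166 to 0.232 CPM. The same steps were tested on simulated counts, whose set changes were larger than the increase of any member, so increases of that size were not covered. The alternatives were DESeq2 1.42.0, limma-voom (limma 3.58.1), RLE scaling, library totals, no filter, a mean count of at least 50, a replicate block and leaving out each library. The members and lists were chosen with earlier results of these data known. Values in every library are printed for a fixed set, for members whose groups do not overlap and whose log2 fold change is at least 0.3 in size or unadjusted p under 0.1, and for the 6 with the widest spread of at least 0.5 (log2) within a group. Some other members' values are added. From the pathway, general neuron, inhibitory neuron and astrocyte lists up to 3 genes with the smallest p are named, with SLC17A7, SLC1A2 and RBFOX3, and for other marker lists mainly sums and counts. Some genes that this rule names are not reported here.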

Additional observations from a re-analysis of the deposited data

How the results depend on the processing

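The count of members higher in sign stayed between 31 and 35 of 44 under the other scalings, filters, tests and the replicate block, and between 28 and 35 when a library was left out. Their median log2 fold change was 0.11 to 0.17 and 0.12 to 0.23 in these settings. Library totals without scaling gave 0.11 and moved the median of all genes to -0.048. The number of members called was 0 except without transgenic library 1, so that the range over left-out libraries was 0 to 6. The number of all genes called was 48 with DESeq2, 5 with no low-count filter and 0 to 1710 over left-out libraries. The deviations of same-numbered libraries had a correlation of -0.14 across genes, which are not independent, and the numbers were not taken to pair the libraries. With the replicate block 0 members and 0 genes passed, 35 members were higher in sign and their median was 0.16. With the numbers crossed, a setting chosen after seeing the data, 0 members and 0 genes passed. In 484 member values under 11 alternatives 36 changed sign, in 19 members, none of them called. Over left-out libraries the log2 fold changes that crossed 0 ranged from -0.028 to 0.28 for GRIN2B, from -0.14 to 0.42 for GRIN2D, from -0.00092 to 0.30 for GRIK2, from -0.037 to 0.53 for GRIK4, from -0.23 to 0.64 for GRM2, from -0.40 to 0.21 for GRM3, from -0.026 to 0.54 for GRM4, from -0.0018 to 0.36 for GRM7, from -0.16 to 0.21 for DLG1, from -0.021 to 0.019 for DLG2, from -0.015 to 0.20 for DLG3, from -0.14 to 0.32 for SHANK1, from -0.48 to 0.26 for HOMER1, from -0.14 to 0.15 for HOMER3, from -0.075 to 0.15 for CAMK2A, from -0.19 to 0.0028 for DLGAP3, from -0.092 to 0.19 for DLGAP4, from -0.39 to 0.25 for NLGN3, from -0.26 to 0.19 for BAIAP2, from -0.012 to 0.24 for SLC17A7. With library totals they were -0.027 for DLG1, -0.045 for DLG2 and -0.015 for CAMK2A, and with a mean count of at least 50 -0.0074 for DLG2. HOMER3, next to 0, was 0.0033 with RLE scaling, 0.013 with no filter, 0.0039 with DESeq2, 0.014 with limma-voom and 0.0049 with the replicate block. The cause of these sign changes was not tested.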

Other observations

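The transgenic libraries differed by at least 0.5 on the log2 scale in 7 of the 44 members (15.9%, against 26.6% of all genes tested), and the wild-type libraries in 3 (6.82%, against 13.4% of all genes tested). HOMER1 was at 192 and 183 CPM in transgenic libraries 1 and 2, against 158 and 262 CPM in wild-type libraries 1 and 2, and GRM2 at 58.9 and 40.04 CPM in transgenic libraries 1 and 2, against 31.9 and 57.6 CPM in wild-type libraries 1 and 2, so that for these genes the spread within the wild type was wider than the difference between the groups.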
